A study of Gallus gallus with 4 samples.

Results

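A group of 8 genes that make or store catecholamines, or that make corticosteroids and receive the signal for them, was followed in whole ovaries and testes of the chicken. They are TH, DDC, DBH, SLC18A1, SLC18A2, CYP21A1, MC2R and MRAP. The members were taken by gene symbol in the annotation of the array, which gave 17 probe sets for the 8 genes, out of 38382 probe sets and 13009 named genes tested. They were chosen by their ovary and testis values on these arrays, so their ovary and testis levels are given as a description and carry no test. The animals were 17 weeks old and came from inbred CB congenic lines of White Leghorn origin, with no treatment named in the labels. The 16 animals, 8 of each sex, gave 2 ovary pools and 2 testis pools of 4 animals, with 1 Affymetrix Chicken Genome Array for every pool. Values are the log2 expression values per probe set that the authors deposited. Pools average over animals, so that the spread between pools is not the spread between animals, and whole tissue mixes all cell types of the organ.

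Catecholamines are made from tyrosine. Tyrosine hydroxylase (TH) forms L-DOPA in the rate-limiting step, aromatic L-amino acid decarboxylase (DDC) turns it into dopamine, and dopamine beta-hydroxylase (DBH) turns dopamine into noradrenaline inside vesicles that are filled by the vesicular monoamine transporters, the products of SLC18A1 and SLC18A2. Sympathetic nerve fibres and the chromaffin cells of the adrenal gland use this pathway, and the ovary of birds is richly innervated by such fibres. Corticosteroids are made by steroidogenic cells of the adrenal cortex, where steroid 21-hydroxylase (CYP21A1) acts on progesterone and its 17-hydroxylated form, and where the corticotropin receptor (MC2R) reaches the cell surface with the help of its accessory protein MRAP. In birds the adrenal gland lies close to the left ovary, and its cortical and chromaffin cells are intermingled.

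The labels of the arrays matched their tissue. All 5 ovary markers, among them CYP19A1 and GDF9, were higher in ovary and all 5 testis markers, among them ACR and TEKT3, in testis (limma, adjusted p = 0.000476 to 0.0208 for the 10 genes). A value was taken as above background when it exceeded log2 3.32, below which lay 99% of the values of the 689 probe sets not named as chicken sequences, and 55.1% to 55.7% of probe sets per array did so. Over all probe sets 18.2% were higher in ovary and 17.4% in testis (limma, adjusted p under 0.05). The 2 ovary pools correlated across probe sets at r = 0.991 and the 2 testis pools at r = 0.995. Ovary pool 1 stood apart from ovary pool 2 in a set of genes described further on.

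Of the 17 probe sets, 11 were above background in both ovary pools, 2 in 1 ovary pool and 4 in no pool of either organ. In 14 probe sets both ovary pools lay above both testis pools, an order found in 40.0% of all probe sets, in 1 the order was the opposite (30.0% of all), and in 2 the organs overlapped. Above background in both ovary pools and in no testis pool were 5 probe sets, those of TH, SLC18A1, CYP21A1, MC2R and MRAP that were brightest for their gene, against 3.30% of all probe sets. By gene this is 5 of 8, against 3.61% of all genes, and in the brightest probe set of all 8 genes both ovary pools lay above both testis pools, as in 45.2% of all genes. Since the genes were chosen for this contrast, nothing is read from these shares. Taking the brightest probe set of each gene, the ovary minus testis difference ran from 0.30 to 8.54 on the log2 scale, with a median of 4.36, while the median over all 13009 genes was 0.01. In their brightest probe sets TH, the transporters, CYP21A1, MC2R and MRAP fitted the name of the group. SLC18A2 was above background in testis too, and the dimmer probe set of SLC18A1 was higher in testis. For DDC the organs hardly differed, and DBH was above background in 1 of the 4 pools.

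**Figure D1:**
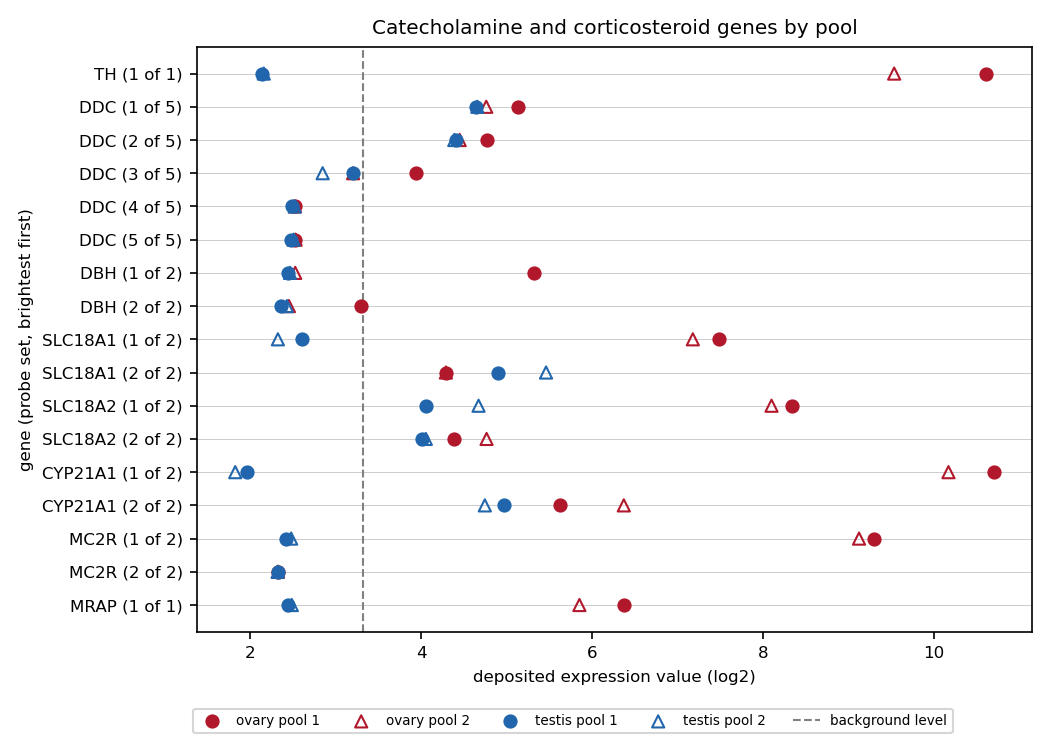
Deposited log2 values of all 17 probe sets of the 8 genes (rows, brightest probe set of a gene first) in the 2 ovary pools (red) and the 2 testis pools (blue), with filled circles for pool 1 and open triangles for pool 2. The dashed line is the background level of log2 3.32. TH, CYP21A1 and MC2R have a probe set far to the right of it in both ovary pools and to the left of it in both testis pools, while DBH passes it in ovary pool 1 alone.

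Among the synthesis enzymes, TH carried the clear ovarian signal. Its single probe set stood at log2 10.61 in ovary pool 1 and 9.53 in ovary pool 2, and at 2.14 and 2.16 in the testis pools. Both testis pools lay at background and both ovary pools far above it, so that TH was at least 107.5-fold higher in ovary, counted from the ovary mean of 10.07 ± 0.76 (SD, n = 2 pools) to the background level. In whole tissue, fewer cells of a type and less RNA per cell cannot be told apart.

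DDC, the enzyme of the second step, was represented by 5 probe sets. The brightest stood at log2 5.14 and 4.76 in the ovary pools and 4.64 and 4.66 in the testis pools, a mean difference of 0.30. A second stood at 4.78 and 4.45 in ovary and 4.41 and 4.39 in testis. Another was above background in ovary pool 1 alone, at 3.94, with 3.21 in ovary pool 2 and 3.21 and 2.85 in testis, and here the organs overlapped. In each of these 3 probe sets ovary pool 1 was the highest of the 4 arrays, and ovary pool 2 lay nearer to the testis pools than to ovary pool 1. The remaining 2 probe sets were at background on every array, at 2.48 to 2.53. The brightest and the one seen in ovary pool 1 alone are of the array's type whose probes match more than a single transcript.

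DBH, which makes noradrenaline from dopamine, was seen in 1 ovary pool. Its brighter probe set stood at log2 5.32 in ovary pool 1, which is 1.99 above the background level, and at 2.53 in ovary pool 2, 2.45 in testis pool 1 and 2.47 in testis pool 2. The other probe set showed the same order below the background level, with 3.30 in ovary pool 1 against 2.46, 2.36 and 2.43. No ovary to testis fold is given for DBH, because its ovary mean (3.92 ± 1.97, SD, n = 2 pools) is an average over a pool that measured it and a pool that did not.

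The vesicular transporters load monoamines into granules and synaptic vesicles, SLC18A1 mainly in endocrine cells and SLC18A2 mainly in neurons, as known from mammals. The brighter probe set of SLC18A1 stood at log2 7.49 and 7.18 in ovary and at 2.61 and 2.33 in testis, at least 16.1-fold higher in ovary. Its other probe set ran the opposite way, at 4.29 in each ovary pool and 4.90 and 5.46 in the testis pools, a difference of -0.89. The 2 probe sets of SLC18A1 thus disagree in direction, and the ovarian excess holds for the brighter one. The brighter probe set of SLC18A2 stood at 8.34 and 8.10 in ovary and at 4.05 and 4.67 in testis, 14.5-fold higher in ovary with all 4 pools above background. The other stood at 4.38 and 4.77 in ovary and 4.02 and 4.06 in testis, a difference of 0.54 in the same direction. The probe sets of SLC18A2 and the brighter one of SLC18A1 are of the array's type whose probes match more than a single transcript.

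CYP21A1, whose product leads to 11-deoxycorticosterone and 11-deoxycortisol, was bright in ovary. Its brighter probe set stood at log2 10.70 and 10.17 in the ovary pools and 1.96 and 1.83 in the testis pools, at least 138.5-fold higher in ovary. The other probe set stood at 5.62 and 6.37 in ovary and 4.98 and 4.75 in testis, 2.2-fold higher by its measured values. The order of the ovary pools was opposite in the 2 probe sets, with pool 1 higher in the brighter and pool 2 higher in the dimmer. A further probe set that the annotation assigns to both CYP21A1 and the complement gene C4 was left out by the rule. It stood at 8.87 and 8.72 in ovary and 8.85 and 8.75 in testis, so that the organs overlapped.

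MC2R, the receptor through which corticotropin drives corticosteroid synthesis, stood at log2 9.30 and 9.12 in the ovary pools and 2.42 and 2.48 in the testis pools. Both ovary pools lay within 0.18 of each other, and the level was at least 59.2-fold above the background at which both testis pools stood. A second probe set of MC2R read 2.32 to 2.33 on all 4 arrays, at background, and gives no value for either organ. MRAP, needed by MC2R for its transport to the surface and for hormone binding, stood at 6.38 and 5.85 in ovary and 2.45 and 2.49 in testis. It was at least 6.93-fold higher in ovary, and its ovary pools did not overlap with the testis pools. Receptor and accessory protein were thus both above background in both ovary pools and at background in both testis pools.

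The 2 ovary pools differed most for DBH and TH. Ovary pool 1 minus ovary pool 2, a comparison of single arrays with no test, was 2.79 on the log2 scale for DBH and 1.07 for TH. It was 0.53 for CYP21A1 and for MRAP, 0.37 for DDC, 0.31 for SLC18A1, 0.24 for SLC18A2 and 0.18 for MC2R. All 8 brightest probe sets were higher in pool 1. Among the dimmer ones, those of SLC18A2 (-0.39) and CYP21A1 (-0.75) were higher in pool 2. Dimmer ones of DDC (0.33 and 0.73) and of DBH (0.85, below background) were higher in pool 1. Among the 10125 genes above background in at least 1 ovary pool, 40.4% were higher in pool 1, the median difference was -0.04 and the 5th and 95th percentiles were -0.53 and 0.68. DBH held rank 29 of 10125 from the top and TH rank 234, whereas the other 6 lay within the 5th to 95th percentile.

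Many other genes also differed between the ovary arrays. A difference of at least 1 in favour of pool 1 was found for 268 genes (2.65%) and in favour of pool 2 for 119. Of the 268, 201 were above background in both testis pools. For 153 of these 201 ovary pool 2 was the lowest of the 4 arrays, an order partly fixed by choosing genes lower in that pool. At background in both testis pools were 58 of the 268. DBH belonged to 32 of these 58 genes that lay at background in ovary pool 2 as well. Of the 4 sympathoadrenal transcription factor genes above background in an ovary pool, 3 were higher in pool 1, against 40.4% of all such genes. Their pool differences were 2.23 for SOX11, 1.10 for HAND2, 0.21 for TFAP2B and -0.36 for ISL1. The other 4 of the 8 measured were at background on every array, so the median of 0.01 over all 8 tells little. SLC6A2, the noradrenaline transporter gene, was lower in pool 1 (-0.52). In other lists described below, the genes above background in an ovary pool went both ways. Higher in pool 1 were 10 of 14 granule and neuropeptide genes, 3 of 6 uptake and breakdown genes and 3 of 8 cofactor genes. Among markers it was 6 of 10 for neurons and 2 of 5 for glia. The source of these pool differences was not tested.

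**Figure D2:**
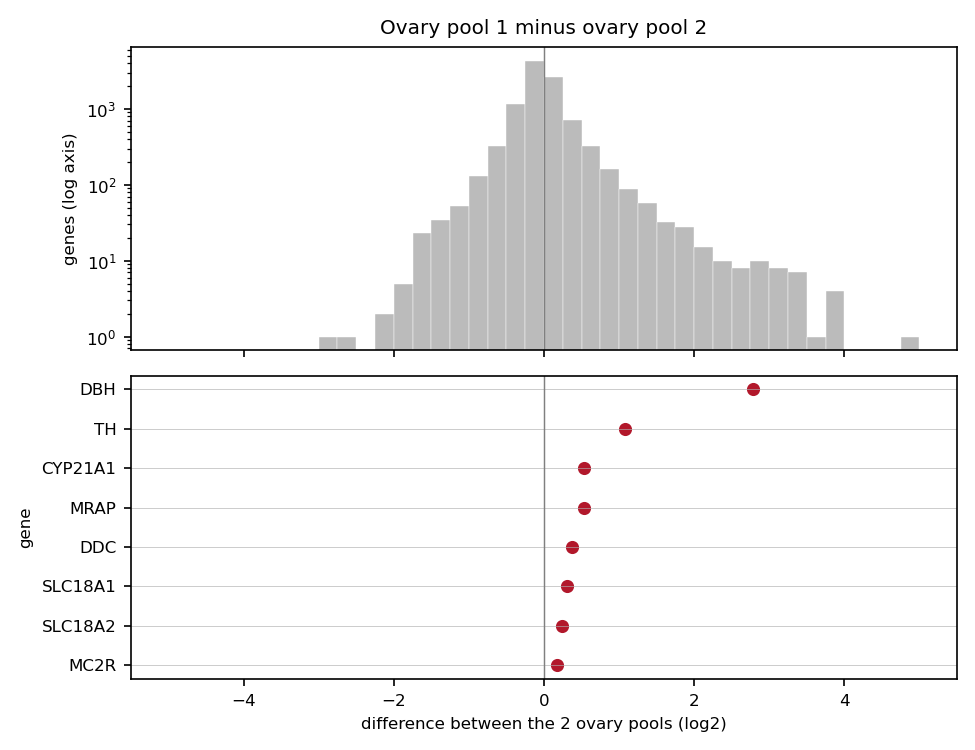
Difference between the 2 ovary pools (pool 1 minus pool 2, log2). The upper panel is a histogram over 10125 genes above background in at least 1 ovary pool, with a log axis of gene counts, and the lower panel shows the brightest probe set of each of the 8 genes. All 8 lie right of 0, with DBH at 2.79 and TH at 1.07.

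Genes with the most similar profile were looked up as the smallest Euclidean distance between log2 values over the 4 pools, among 12190 other named genes. With 4 arrays such a list holds genes that are alike in level and organ, and probe sets differ in brightness for reasons other than abundance. Nearest to CYP21A1 was SLC22A3, an extraneuronal transporter that takes up catecholamines, at a distance of 0.64 (log2 10.68 and 10.60 in ovary, 2.20 and 2.23 in testis), followed by SH2D6 at 0.64. TH was closest to CD88 and MOS, a kinase gene of the oocyte, both at 0.74. For MC2R the closest were OSTN (0.26) and AREG (0.30), which encodes the growth factor amphiregulin, for MRAP KCNIP4 (0.30) and IL10RA (0.37), for SLC18A1 DOC2B (0.36), a gene of calcium-triggered exocytosis, and MYL2 (0.42), and for SLC18A2 ARHGAP24 (0.34) and SGCD (0.35). DDC, with its flat profile, was closest to ZNF185 (0.02) and NBEAL2 (0.04). No nearest genes are given for DBH, which was above background in 1 ovary pool.

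The 8 genes lie on 7 chromosomes, with DDC and MC2R both on chromosome 2, TH on 5, SLC18A2 on 6, CYP21A1 on 16, DBH on 17, SLC18A1 on 22 and MRAP on 1. Their neighbours were the 2 protein-coding genes on either side in the gene order of assembly GRCg7b, taken by position. They numbered 32, of which 26 were measured. Of the 26, 13 passed toward ovary, 4 toward testis and 9 not at all (limma, adjusted p under 0.05), against 28.7% and 24.3% of all 13009 genes higher in ovary and in testis. Without testis pool 1, and likewise without testis pool 2, 7 passed toward ovary and 3 toward testis. Beside MC2R lies MC5R, another melanocortin receptor gene, at log2 6.59 and 6.45 in ovary and at background in testis (2.48 and 2.62), an excess of at least 9.17-fold (adjusted p = 0.0013). CDH19 and CDH7, cadherin genes on the other side of MC2R, were at least 11.3-fold and 1.94-fold higher (adjusted p = 0.00166 and 0.00624). Next to DBH, FAM163B exceeded its testis level at least 245-fold (adjusted p = 0.00119), at 11.47 and 11.05 in the ovary pools. IGF2, 2 places from TH, exceeded its testis level at least 10.6-fold (adjusted p = 0.00681), while the insulin gene INS between them was at background on all 4 arrays. C4, near CYP21A1, did not pass (0.13, adjusted p = 0.66), whereas TNX, on its other side, was 6.83-fold higher in ovary (adjusted p = 0.0357). The calls of CDH7 and IGF2 did not survive the loss of testis pool 1 (adjusted p = 0.0821 and 0.0861) or of testis pool 2 (0.0854 and 0.0899). TNX lost its call without ovary pool 1 (0.125) and without ovary pool 2 (0.118).

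**Figure D3:**
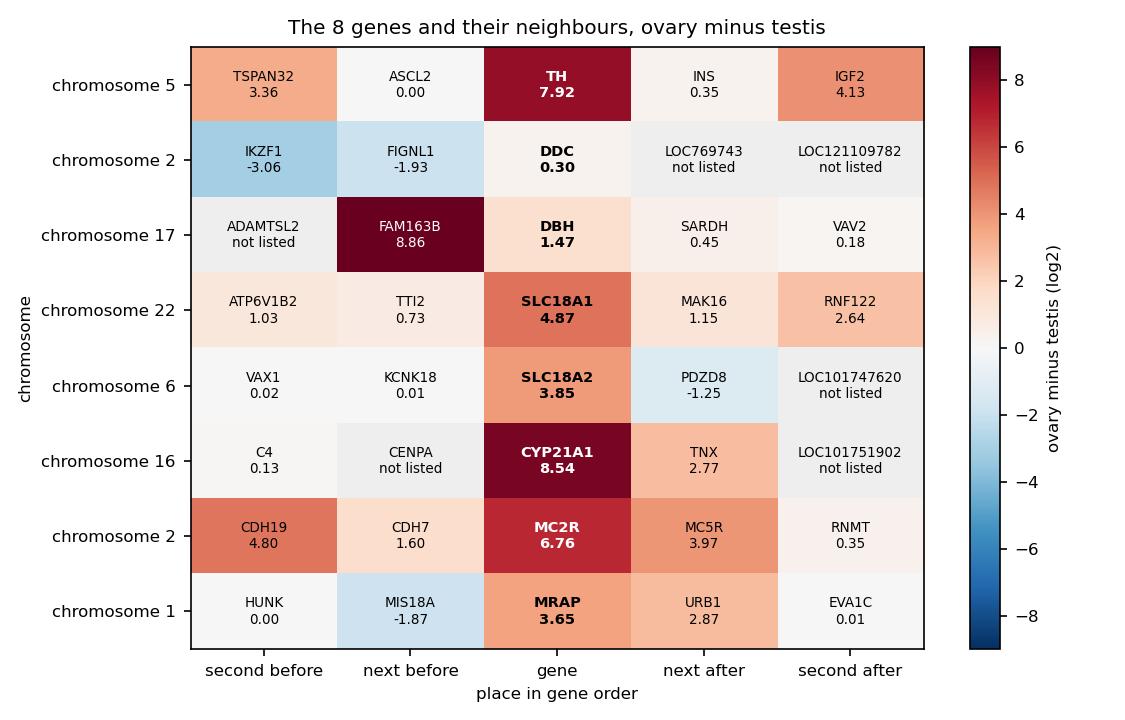
Ovary minus testis difference (log2, brightest probe set) of the 8 genes (middle column) and their neighbours, one row per gene with its chromosome. Neighbours are the 2 protein-coding genes before and after each gene in gene order (columns). Red is higher in ovary, blue higher in testis, and grey cells are genes for which the annotation lists no probe set. FAM163B next to DBH stands at 8.86 and MC5R next to MC2R at 3.97.

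The other genes of these pathways were read from 9 lists of 110 genes, of which 77 were measured, and these were tested. Across the 77, 36 passed toward ovary, 9 toward testis and 32 not at all (limma, adjusted p under 0.05 over all probe sets), against 28.7% and 24.3% of all genes, and the median difference was 1.24, against 0.01. Ovary-higher counts of 3 of 8 for uptake and breakdown and for the transcription factors lay near the share over all genes, and 2 of 10 receptors and 1 of 6 melanocortin genes lay below it. Of the 45 called genes, 24 were called with every single pool left out in turn. The lists were drawn up with earlier results of these data known, and their counts are no independent support.

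TH needs the cofactor tetrahydrobiopterin, and the genes that make and recycle it were mostly higher in ovary. GCH1, which encodes the first enzyme of its synthesis, stood at log2 7.55 and 7.03 in ovary and 3.99 and 3.76 in testis, 10.6-fold higher in ovary (limma adjusted p = 0.00715). PTS, of the following step, was 1.77-fold higher (adjusted p = 0.0406), and QDPR and PCBD1, which regenerate the cofactor, were 1.84-fold and 12.4-fold higher (adjusted p = 0.00949 and 0.00227). SPR did not pass (0.16, adjusted p = 0.51), nor did GCHFR, the regulator of GCH1 (1.57, adjusted p = 0.186). In GCHFR 1 of 3 probe sets passed toward ovary. The tryptophan hydroxylase gene TPH2, which starts serotonin synthesis and uses the same cofactor, was 5.12-fold higher in testis (adjusted p = 0.00792), while TPH1 (-1.08, adjusted p = 0.14) did not pass. Of the 8 measured members, 4 passed toward ovary, 1 toward testis and 3 not at all, with a median of 0.85. The calls of GCH1, PTS and TPH2 did not survive the loss of testis pool 1 (adjusted p = 0.0833, 0.227 and 0.0842) or of testis pool 2 (0.0891, 0.168 and 0.0914). PTS lost its call without ovary pool 2 as well (0.0771), and SPR passed without testis pool 1 (0.0331). PNMT, which makes adrenaline, was not analysed here.

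Among genes that remove catecholamines, the transporter genes SLC22A3 and SLC29A4 were higher in ovary by their brightest probe sets. SLC22A3 was at least 160-fold higher in ovary by its brightest probe set (limma adjusted p = 0.000305), and all 3 of its probe sets passed toward ovary. SLC29A4, the plasma membrane monoamine transporter gene, exceeded its testis level at least 10.5-fold in 1 of its 2 probe sets (adjusted p = 0.00624), and the other did not pass. The noradrenaline transporter gene SLC6A2, which marks noradrenergic neurons, ran the other way, at log2 6.51 and 7.03 in ovary and 8.32 and 8.14 in testis, 2.75-fold higher in testis (adjusted p = 0.0338). ALDH2, which oxidises the aldehydes left by monoamine oxidase, was 7.68-fold higher in ovary (adjusted p = 0.000695), whereas MAOA (1.20, adjusted p = 0.0619) and RNLS (-0.11, adjusted p = 0.693) did not pass, and MAOB and SLC6A4 were at background on every array. Of the 8 measured, 3 passed toward ovary, 1 toward testis and 4 not at all, with a median of 0.63. The call of SLC6A2 did not survive the loss of testis pool 1 (adjusted p = 0.22) or of testis pool 2 (0.177).

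Of the receptors for catecholamines, both measured alpha-2 receptor genes were seen in ovary alone. ADRA2A stood at log2 7.11 and 6.85 in ovary and 1.73 and 2.12 in testis, at least 12.6-fold higher in ovary (limma adjusted p = 0.00275). ADRA2C stood at 7.68 and 7.51 against 2.81 and 2.13, at least 19.3-fold higher (adjusted p = 0.00506). These receptors couple to inhibitory G proteins. The dopamine receptor gene DRD5 had a difference of 1.53 (adjusted p = 0.0764) and DRD4 of -0.22 (adjusted p = 0.486), and neither passed. The other probe set of DRD5 passed toward ovary. DRD5 also passed with dim probe sets filtered out (adjusted p = 0.019), with median centring (0.0155) and with a variance trend (0.0453). As the median of its probe sets it passed as well (a difference of 2.34, 0.00213). DRD5 did not pass with quantile normalization (0.0752), a floor at background (0.126) or the pool number as a block (0.19). With single pools left out its difference ranged from 1.19 to 1.87. DRD1, DRD2, DRD3, ADRA1A and ADRA1D were at background on all 4 arrays, and ADRA1B on all but testis pool 2 (3.91). Of 10 measured receptors, 2 passed toward ovary, 0 toward testis (limma, also 0 at an unadjusted p under 0.05) and 8 not at all, with a median of 0.03. With 1 testis pool left out ADRA1B (adjusted p = 0.0134 without pool 1) and DRD4 (0.0288 without pool 2) passed toward testis.

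Transcription factors of the sympathoadrenal lineage were measured in part. TFAP2B, a factor of the neural crest, was at least 46.6-fold higher in ovary (limma adjusted p = 0.000831), ISL1 at least 6.02-fold (adjusted p = 0.00369) and HAND2 11.2-fold (adjusted p = 0.0235). SOX11 (1.24, adjusted p = 0.483) was read in ovary pool 1 alone and did not pass, and without ovary pool 2 it passed (0.00817). GATA3, GATA2, HAND1 and EYA1 were at background on every array, which gives only a bound. In ISL1 1 of 2 probe sets passed toward ovary. Of the 8 measured, 3 passed toward ovary, 0 toward testis (limma, also 0 at an unadjusted p under 0.05) and 5 not at all, with a median of 0.63. The calls of HAND2 and ISL1 did not survive the loss of testis pool 1 (adjusted p = 0.182 and 0.0631) or of testis pool 2 (0.168 and 0.0651).

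Genes of the secretory granule that stores catecholamines in chromaffin cells, and of neuropeptides released with them, divided. Higher in ovary were CHGA, the chromogranin A gene (903-fold by measured values just above background in testis, limma adjusted p = 0.000932), CHGB (at least 21.3-fold, adjusted p = 0.00252) and SCG3 (28.3-fold, adjusted p = 0.00145). The galanin gene GAL was higher by 6.54 (testis pool 2 at background, adjusted p = 0.00542). The prohormone convertase gene PCSK1 was at background in ovary and exceeded that level at least 27.2-fold in testis (adjusted p = 0.00217), and PENK, which encodes the enkephalins of chromaffin granules, was 6.17-fold higher in testis (adjusted p = 0.00322), as were SCG5 (2.93-fold, adjusted p = 0.00942) and NPY, the peptide co-stored with noradrenaline in sympathetic nerves (2.82-fold, adjusted p = 0.0357). In SCG5 1 of 4 probe sets passed toward testis, and in PCSK1 2 of 3. Of the 15 measured, 10 passed toward ovary, 4 toward testis and 1 not at all, with a median of 2.69. Without testis pool 1 the ovary-higher and testis-higher counts were 6 and 2, and without testis pool 2 they were 5 and 2. The calls of NPY and SCG5 did not survive the loss of testis pool 1 (adjusted p = 0.229 and 0.073) or of testis pool 2 (0.19 and 0.0837). GAL lost its call without testis pool 2 (0.0539).

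**Figure D4:**
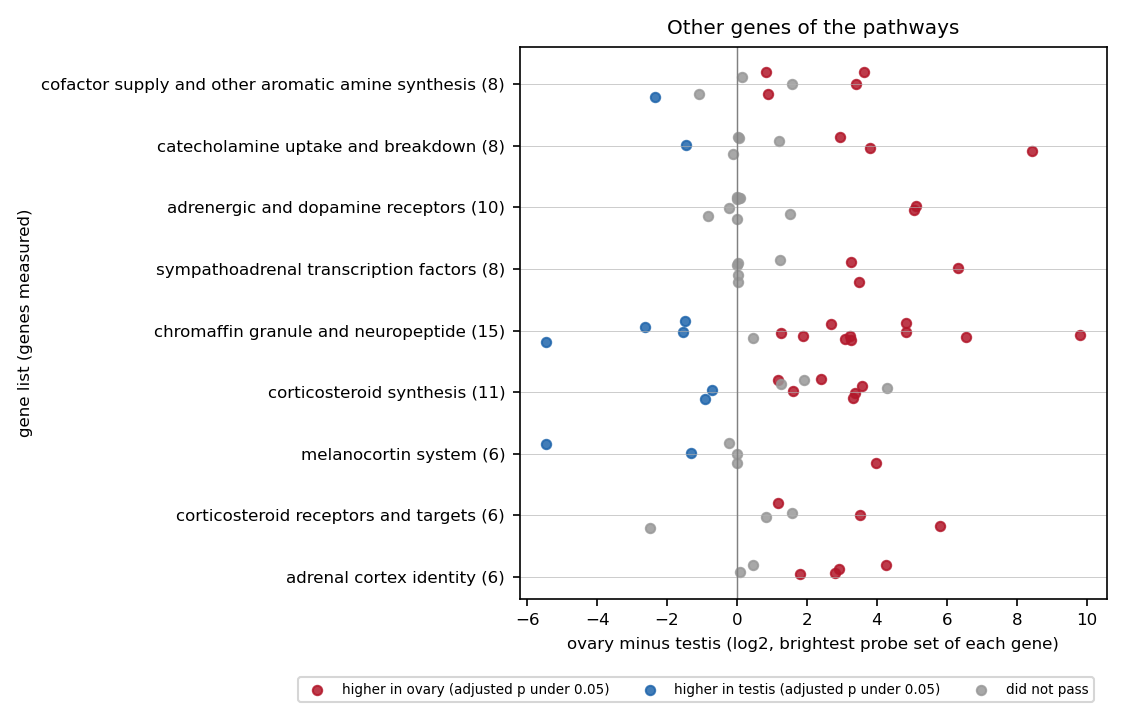
Ovary minus testis difference (log2) of each measured gene of the 9 pathway lists, with the number measured in brackets. Points are the brightest probe set of a gene, spread vertically for sight only, red for genes higher in ovary, blue for genes higher in testis and grey for genes that did not pass. All called genes of the transcription factor, adrenergic receptor and adrenal cortex lists lie right of 0, while the granule list holds 4 genes left of it.

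The steps that precede CYP21A1 in corticosteroid synthesis are shared with sex steroid synthesis. They were read in a list of 11 measured genes that also holds genes outside these steps, such as HSD11B1L. All 11 were above background in every pool, HSD11B1L narrowly so in ovary (log2 3.55 in both pools). CYP11A1, which cuts the side chain of cholesterol, was 10.3-fold higher in ovary (limma adjusted p = 0.0102) and HSD3B1, which makes progesterone, the substrate of CYP21A1, 5.31-fold (adjusted p = 0.00902). The electron donor gene POR, which serves CYP21A1 and CYP17A1, was 12-fold higher (adjusted p = 0.031), CYB5A 10.1-fold (adjusted p = 0.0032), TSPO 3.06-fold (adjusted p = 0.00296) and CYP17A1 2.23-fold (adjusted p = 0.0405). FDX1, the electron donor of the mitochondrial enzymes, was 1.65-fold higher in testis (adjusted p = 0.0156), as was HSD11B1L (1.9-fold, adjusted p = 0.00275). STAR, the cholesterol carrier gene, stood at log2 12.15 and 11.64 in ovary and 8.68 and 6.55 in testis and did not pass (4.28, adjusted p = 0.0634), nor did FDXR (1.25, adjusted p = 0.205) and SCARB1 (1.92, adjusted p = 0.0986). In FDXR, POR and TSPO 1 of 2 probe sets passed toward ovary. The counts were 6 higher in ovary, 2 in testis and 3 not passing of 11, with a median of 1.92. CYP21A1 thus differed from these genes in being at background in testis in its brighter probe set, a difference in pattern that was not tested. The calls of POR ended with any single pool left out (adjusted p = 0.0783 to 0.12), of CYP17A1 without ovary pool 1, ovary pool 2 or testis pool 2 (0.123, 0.14 and 0.0616), of FDX1 without ovary pool 1 or 2 (0.0672 and 0.0725) and of TSPO without testis pool 2 (0.0507), while SCARB1 passed without ovary pool 2 (0.0424). The enzymes of the last steps, listed as CYP11B1, CYP11B2 and CYP11C1, were not analysed here.

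In the melanocortin system around MC2R, the ligand gene POMC was at background on every array, at log2 1.98 to 1.99, as were MC4R and AGRP. MC5R was the single called ovary-higher gene of 6, and PCSK1, whose product cuts corticotropin from its precursor, and MRAP2, the paralogue of MRAP, were higher in testis. MRAP2 stood at 3.33 and 3.09 in ovary and 4.66 and 4.38 in testis (-1.31, limma adjusted p = 0.0188), the opposite order to MRAP. Its call did not survive the loss of ovary pool 2 (adjusted p = 0.0634), testis pool 1 (0.111) and testis pool 2 (0.0891). The list had a median of -0.11, with 1 gene higher in ovary, 2 in testis and 3 that did not pass.

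Receptors and responsive genes of corticosteroids were higher in ovary in 3 of 6. These were the mineralocorticoid receptor gene NR3C2 (2.27-fold, limma adjusted p = 0.00972), SGK1, a kinase gene induced by corticosteroids in many tissues (11.5-fold, adjusted p = 0.000808), and DUSP1 (55.6-fold, adjusted p = 0.00128). FKBP5 (1.57, adjusted p = 0.0618), KLF9 (-2.48, adjusted p = 0.12) and the glucocorticoid receptor gene NR3C1 (0.83, adjusted p = 0.488) did not pass, and the brightest of 3 probe sets of NR3C1 was above background in ovary pool 2 alone (3.90). The median was 1.38. In FKBP5 1 of 3 probe sets passed toward ovary. The call of NR3C2 did not survive the loss of testis pool 1 (adjusted p = 0.0761) and testis pool 2 (0.0671), NR3C1 passed without ovary pool 1 (0.0102), and KLF9 passed toward testis without ovary pool 1 (0.0362) and without ovary pool 2 (0.016).

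Regulators of adrenal cortex identity, all of which the gonads also use, were higher in ovary in 4 of 6, with a median of 2.29. NR5A1, the steroidogenic factor that activates CYP21A1 and MC2R in mammals, was 6.93-fold higher (limma adjusted p = 0.00252). NR0B1 was 7.52-fold (adjusted p = 0.0014), TCF21 19.1-fold (adjusted p = 0.0016) and GATA6 3.47-fold higher (adjusted p = 0.00132). CITED2 was at background on every array (difference 0.09, adjusted p = 0.333). DLK1 was above background in ovary pool 2 alone (difference 0.46, adjusted p = 0.481), and it passed without ovary pool 1 (0.0187).

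Markers of other cells that a whole ovary can hold were in part higher in ovary and in part higher in testis. Their counts, here and in the next paragraphs, stand against 28.7% and 24.3% of all genes higher in ovary and in testis. Ovary-higher counts of 3 of 7 glia and 2 of 7 leukocyte markers lay near that share. Of 11 measured neuron markers 7 passed toward ovary and 1 toward testis (limma). Higher in ovary were the neurofilament genes NEFM (38.1-fold, adjusted p = 0.000304) and NEFL (13.9-fold, adjusted p = 0.00321), STMN2 (14.2-fold, adjusted p = 0.00483), the synaptic genes SNAP25 (at least 5.85-fold) and SYT1 (at least 3.47-fold), UCHL1 (1.77-fold) and DCX (1.26-fold). In UCHL1 and in SYT1 1 of 3 probe sets passed toward ovary, and in DCX 1 of 5. ELAVL4, which encodes a neuronal RNA-binding protein, was 5.49-fold higher in testis (adjusted p = 0.0025). TUBB3 (0.34) and RTN1 (-0.16) did not pass, and GAP43 was at background on every array. Their summed level on the linear scale was 27038 to 27748 in the ovary pools and 12280 to 12666 in the testis pools, of which UCHL1 gave 16215 to 16854 and 9177 to 9555. Without testis pool 1 the ovary-higher count was 5, and without testis pool 2 it was 4. Between the ovary pools these markers went both ways, from -0.53 for SYT1 and -0.49 for SNAP25 to 0.29 for NEFL and 0.31 for STMN2.

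Of 7 glia markers 3 were higher in ovary, CDH19 (at least 11.3-fold), the myelin gene PMP22 (5.37-fold) and SOX10, the factor of neural crest glia (difference 1.70), while S100B was 6.96-fold higher in testis. In SOX10 1 of 2 probe sets passed toward ovary. FOXD3, above background in ovary pool 1 alone (3.50), did not pass (0.60), and NGFR and GFRA3 were at background throughout. Their sum was 960 to 1135 in ovary and 395 to 473 in testis, but without PMP22 it was 190 to 213 and 238 to 316. The calls of SOX10 and PMP22 did not survive the loss of testis pool 1 or of testis pool 2, and SOX10 lost its call without ovary pool 2 as well. CDH19 kept its call whichever pool was left out. Whether FOXD3 passed toward ovary depended on the pool left out.

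The theca and interstitial markers summed to 11631 to 12737 in ovary and 2879 to 4197 in testis. CYP17A1, HSD3B1, the luteinizing hormone receptor gene LHCGR (2-fold) and PDGFRA (6.91-fold) were higher in ovary. In testis 0 of 7 were higher (limma, also 0 at an unadjusted p under 0.05). STAR and DES (-0.44) did not pass and ACTA2 was at background. The 0 toward testis depended on DES, whose difference was -0.93 without ovary pool 1 and 0.05 without ovary pool 2. The ovary-higher count of 4 was 2 without ovary pool 1, ovary pool 2 or testis pool 2. Leukocyte markers divided, with CSF1R (8.45-fold) and CD3E (3.42-fold) higher in ovary, LCP1 (3.19-fold) and PTPRC (1.9-fold) higher in testis, CD8A not passing (0.18), CD4 and CD79B at background and a median of 0.01. Their sum was 2721 to 2931 in ovary and 1301 to 1506 in testis, but without CSF1R, a gene of macrophages, it was 478 to 575 and 1071 to 1185. With single pools left out the leukocyte counts ranged from 1 to 2 toward ovary and from 0 to 1 toward testis.

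Kidney markers, from an organ next to the gonads, summed to 242 to 257 in ovary and 377 to 401 in testis. Of the 9, 0 passed toward ovary (limma, 1 at an unadjusted p under 0.05), and UMOD, which encodes uromodulin, was 6.79-fold higher in testis (adjusted p = 0.000705). SLC12A1 (-0.65), SLC12A3 (-0.16), SLC34A1 (-0.11), CUBN (0.97) and LRP2 (-0.65) did not pass, and AQP2, CALB1 and PAX2 were at background. In CUBN 1 of 4 probe sets passed toward ovary, and in LRP2 1 of 9 toward testis. CUBN also passed toward ovary with dim probe sets filtered out, with median centring and as the median of its probe sets. It did not pass with quantile normalization, a floor at background, a variance trend or the pool number as a block. With single pools left out its difference ranged from 0.73 to 1.21. Whether CUBN passed toward ovary, and SLC12A1 toward testis, depended on the pool left out. The part of nerve, glia, adrenal or interstitial cells in the levels of the 8 genes was not tested.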

How the data were processed

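Total RNA of pooled gonads was hybridised to 4 arrays. The authors deposited log2 expression values per probe set, per the series' value table. The submitters' processing notes name GCRMA and MAS5 without stating role or version, and raw scanner values were not used here. The medians of the 4 columns lay between log2 3.95 and 4.08, which does not tell the method. The background correction was left as deposited.

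Of 38535 probe sets, 153 controls were left out and 38382 tested. The platform annotation gave 1 symbol for 27168 of these, several for 177, which were left unnamed, and none for 11037. Symbols were updated through a gene table of assembly GRCg7b, which matched 26853 probe sets by number, 308 by symbol and 7 not at all, and which was used only for names, chromosomes and gene order. The brightest probe set, by its mean over the 4 arrays, stands for a gene.

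Ovary was compared with testis with R 4.3.3 and limma 3.58.1, using lmFit and eBayes with two-sided tests and Benjamini-Hochberg adjustment over all 38382 probe sets at a threshold of 0.05. Differences are ovary minus testis. The fit had 2 residual and 0.741 prior degrees of freedom and was tested on simulated data. Its p-values reflect the spread between pools and not between animals, and 4 arrays limit the precision. An exact permutation test of 2 pools against 2 has a smallest p of 0.333. Folds marked "at least" run from the mean of the brighter organ to the background level, where the other organ was at background in both pools. The background level was set with the data known.

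The members, the gene lists and the naming rule were chosen with earlier results of these data known. Named were the 8 members, the 2 genes nearest in profile to each member above background in both ovary pools (not DBH), all measured genes of lists of at most 12 and up to 4 called genes per direction of longer lists. Neighbouring protein-coding genes were added by position. The alternatives were a filter on dim probe sets, quantile normalization, median centring, a floor at background, a variance trend, the pool number as a block, the median over probe sets and each pool left out. Pool numbers did not pair the organs.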

Additional observations from a re-analysis of the deposited data

How the results depend on the processing

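With 2 pools per organ, leaving out a pool weakened most tests. The counts over all probe sets were 7000 higher in ovary and 6666 in testis, and ranged from 3734 to 6449 and from 4053 to 6007 with a pool left out. They were 5874 and 5506 with the pool number as a replicate block. The deviations of same-numbered pools correlated at r = 0.05, so the numbers are not taken to pair the organs. Over the 77 pathway genes the counts of 36 and 9 ranged from 23 to 35 and from 5 to 9 with a pool left out, and were 34 and 8 with the block. The median difference of the 8 genes, 4.36, ranged from 4.22 to 4.50 with a pool left out, was 3.93 with values floored at the background level and 2.79 with each gene as the median of its probe sets. These moves follow from the construction, as floored testis values lie higher and dim probe sets enter the median. Of 72 alternative values of single members, 63 moved by less than 1 SD between pools, 9 by more, and 0 fell below 0. By construction, leaving out a pool moves a difference by less than the SD of its organ, and the pool block does not move it. In the brightest probe sets of all 8 genes both ovary pools lay above both testis pools. A left-out pool therefore could not bring their differences below 0, and these counts are no measure of stability. For DBH and DDC the SD between the ovary pools, 1.97 and 0.26, was large beside the difference. Without ovary pool 1 their differences of 1.47 and 0.30 were 0.07 and 0.11, and without ovary pool 2 they were 2.86 and 0.49. Taking the median of probe sets, the difference was 0.011 for SCG5 and -0.047 for DCX, opposite to their brightest probe sets, with adjusted p = 0.871 and 0.523. Of 1580 alternatives for single pathway, marker and neighbouring genes, 1406 stayed on their side of the threshold, 126 lost the call and 46 gained one. The other 2, those of SCG5 and DCX, were called genes that reversed. For genes not called a change of sign was not counted, as for C4 (0.13, and -0.04 as the median of its probe sets). Many of these lie at background. A probe set at background gives only a bound, and 4 of the 17 member probe sets were at background throughout.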
